A study of Gallus gallus with 6 samples.

Results

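ADAM and ADAMTS proteins are zinc-dependent metalloproteases of one superfamily. ADAMs are membrane proteins that cut other membrane proteins close to the cell surface, a step called shedding, which releases growth factors and cytokines and starts Notch signalling. ADAMTS proteins are secreted, carry thrombospondin repeats and cut proteoglycans, procollagens and other molecules of the extracellular matrix, while ADAMTSL proteins share the repeats and lack the protease. The chick chorioallantoic membrane (CAM) lies under the egg shell and is rich in vessels, and granulation tissue is the vessel-rich tissue that fills a wound.

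Expression of these families was compared between wound and control CAM of 3 Brown Leghorn eggs, cultured for 10 days before wounding. During that time the shells were cracked and the contents moved to Petri dishes, so all CAMs grew on outside the shell. The wound CAM had been cut superficially with a scalpel, scraped free of its epithelium and covered with a nylon grid, and was excised 6 days later as granulation tissue. The control CAM was an uninjured area of the same eggs, so the controls had also lived in an embryo whose CAM was wounded elsewhere. Each of the 6 samples, 3 wound and 3 control, was hybridized to 1 Affymetrix chicken GeneChip.

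Members were the genes whose symbol in the platform annotation is ADAM, ADAMTS or ADAMTSL followed by a number and nothing else. They numbered 30 of the 13009 genes with a symbol of their own on the array, 11 ADAM, 17 ADAMTS and 2 ADAMTSL genes, measured by 87 of the 38439 probe sets tested. The RefSeq gene table lists 29 of the 30 under the same gene identifier and symbol, ADAM32 being the exception. It also lists ADAM11, ADAM20, ADAMTS4, ADAMTSL2 and ADAMTSL5, which were not analysed here. For each gene the brightest probe set, by its mean over the 6 arrays, gives the value of the gene.

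Values are the authors' log2 expression from robust multi-array averaging (RMA), and a difference is the mean of the wounds minus the mean of the controls on that scale. Probe sets bind with different strength, so a level is not compared between genes. A probe set is called bright where its mean lay above 3.05, the median over all probe sets, and dim otherwise, since near the floor of the scale a change can be understated. Among the members 19 were bright, 6 ADAM genes and 13 of ADAMTS and ADAMTSL, and 11 were dim. Differences were tested with limma, with p adjusted by Benjamini-Hochberg over all 38439 probe sets, and a gene is said to have risen or fallen at an adjusted p under 0.05. With 3 arrays a group the number of arrays limits the precision, and an exact permutation test of 1 gene could not go below p = 0.1.

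No member of either family rose or fell in the wound. By limma 0 of 11 ADAM genes and 0 of 19 ADAMTS and ADAMTSL genes passed the test, where 2.35% of all probe sets passed, 2.04% as higher and 0.304% as lower (3.92% and 0.392% when each gene is represented by 1 probe set). At an unadjusted p under 0.05, ADAMTS6 and ADAMTS17 were higher and ADAM9 and ADAMTS13 lower, against 14.4% of all probe sets, 10.1% higher and 4.29% lower. With 1 probe set per gene 2273 of the 13009 genes were higher and 772 lower. Significance analysis of microarrays (SAM), the method the study names, was run in both its forms. It was coded anew rather than run with the published software, with calls at a false discovery rate under 0.05. Its d-statistic called ADAM9 and ADAMTS13 lower and 0 members higher, against 6.27% of all probe sets, 1.44% lower and 4.84% higher. With 1 probe set per gene the d-statistic called 274 of the 13009 genes lower and 1121 higher. SAM's rank-sum form called 0 members and 0 probe sets in all. The rank-sum form is the one that the study's methods describe. The 3 wounds lay above the 3 controls in 4 members and below them in 4, where groups did not overlap in 19.9% of all probe sets, 13.7% upward and 6.12% downward (20.8% and 7.81% with 1 probe set per gene).

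The median difference was -0.01 over the 11 ADAM genes, ranging from -0.63 to 0.39, and -0.03 over the 19 ADAMTS and ADAMTSL genes, ranging from -1.10 to 0.64. Among bright genes alone the medians were -0.22 for 6 ADAMs and -0.07 for 13 ADAMTS and ADAMTSL genes, beside 0.10 over the 9337 bright genes of the array. Below 0 lay 7 of 11 ADAMs and 13 of 19 of the others, beside 5600 of the 13009 genes of the array. The 95% interval of the difference, unadjusted, lay inside a 2-fold change in both directions for 20 of the 30 members, 11 of them dim. On the array 85.8% of all probe sets did so, and 10238 of the 13009 genes with 1 probe set each. Among bright genes it was 9 of 19 members, beside 6636 of the 9337 bright genes of the array. The interval reached a 2-fold decrease in 9 members and a 2-fold increase in 2, ADAMTS1 being in both counts. In these 10 members, all bright, the unpaired fit does not bound a change of that size.

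**Figure D1:**
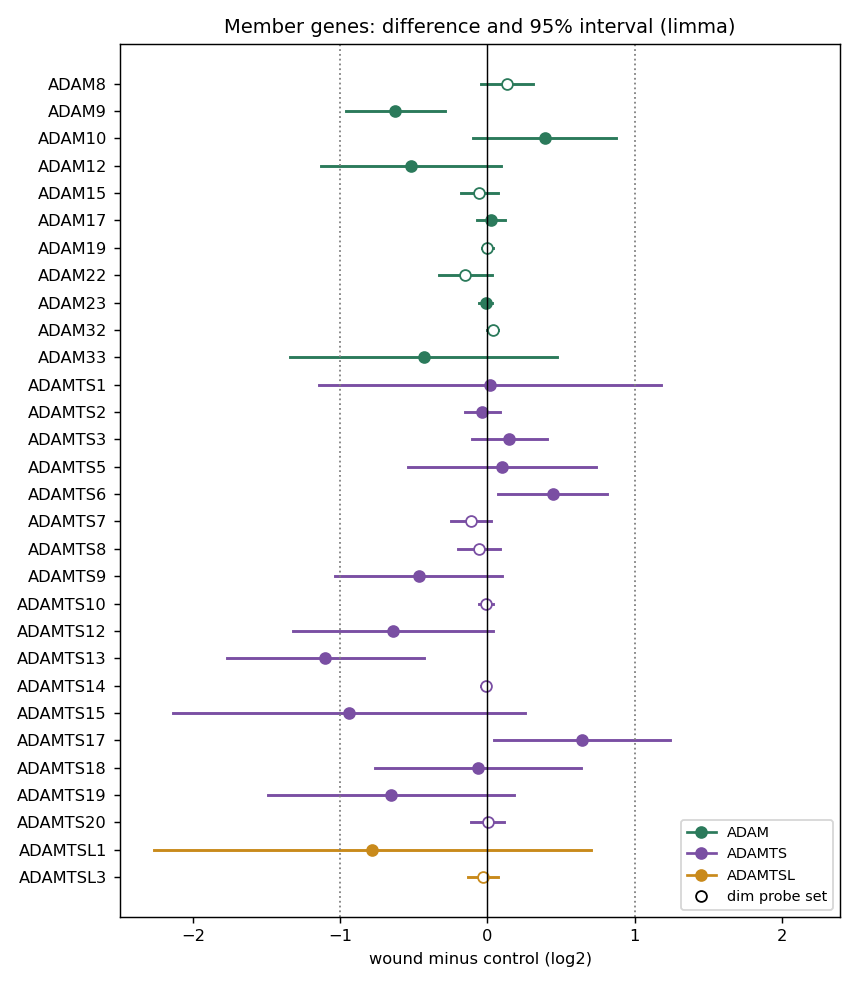
Difference of wound and control means (log2, horizontal axis) for each of the 30 member genes, with the 95% interval from limma as a bar, filled circles for bright and open circles for dim probe sets, and dotted lines at a 2-fold change either way. The intervals of ADAM9 (-0.96 to -0.29) and ADAMTS13 (-1.77 to -0.43) lie below 0, those of ADAMTS6 (0.07 to 0.81) and ADAMTS17 (0.04 to 1.24) above it.

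Of the ADAMs with a complete zinc site in mammals, ADAM9, a widely expressed sheddase, differed most. It measured 6.95, 6.95 and 6.88 in control replicates 1, 2 and 3 and 6.19, 6.13 and 6.58 in wound replicates 1, 2 and 3. All wounds lay below all controls, and wound replicate 3 lay closest to them. The difference was -0.63 (standard error 0.13, adjusted p = 0.102 by limma, 0.648 of the control level), and each egg showed it, at -0.75, -0.82 and -0.30 between samples of equal replicate number. Without wound replicate 3 the difference was -0.77 (adjusted p = 0.0177 by limma), so the call depends on that array. Over all probe sets 421 were then lower, beside 117 with wound replicate 3 included. The second, also bright probe set of ADAM9 differed by 0.12, in the other direction (standard error 0.17, 0.04 with the replicate number as a block). It was higher in the wound of every egg, at 0.20, 0.04 and 0.13. With the mean of its probe sets ADAM9 differed by -0.25 (adjusted p = 0.459 by limma).

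ADAM10, which cuts Notch receptors and cadherins, was listed at 8.997, 9.21 and 9.30 in controls and 9.19, 9.74 and 9.75 in wounds. The groups overlapped through wound replicate 1, although each wound lay above the control of its own number, by 0.19, 0.53 and 0.45. The difference of 0.39 (standard error 0.19) had an adjusted p of 0.484 by limma, and a second bright probe set differed by -0.11 (standard error 0.05). ADAM17, which releases tumor necrosis factor and ligands of the epidermal growth factor receptor in mammals, measured 7.01, 6.94 and 6.94 in controls and 6.99, 6.94 and 7.04 in wounds. Its difference was 0.02 with a 95% interval from -0.07 to 0.12, the narrowest but 1 among the 6 bright ADAMs. That interval corresponds to 0.954 to 1.085 of the control level on this scale.

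ADAM12 and ADAM33 are ADAMs of mesenchymal tissue, and ADAM33 is also named ADAM13 in the RefSeq table. ADAM12 measured 7.62, 7.85 and 7.19 in controls and 7.19, 6.69 and 7.21 in wounds, overlapping through control replicate 3, a difference of -0.52 (standard error 0.24, adjusted p = 0.443 by limma). Of its 4 bright probe sets 3 lay below 0 and 1 above, from -0.52 to 0.10. ADAM33 measured 6.78, 6.32 and 6.41 in controls and 5.99, 5.50 and 6.73 in wounds, a difference of -0.43 (standard error 0.35, adjusted p = 0.763 by limma). Wound replicates 1 and 2 lay below every control and wound replicate 3 inside the range of the controls. Without wound replicate 2 the difference was -0.15 and without wound replicate 3 it was -0.76.

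The remaining ADAMs were close to the floor of the scale. ADAM23, which has no complete zinc site and binds partners at neuronal surfaces in mammals, was bright by a small margin, between 3.35 and 3.40 on all arrays, and differed by -0.01. ADAM22, a related binding protein, differed by -0.15 (adjusted p = 0.453 by limma) and ADAM32 by 0.04 (adjusted p = 0.349), both dim. ADAM15 and ADAM19, which have complete zinc sites, were dim at differences of -0.05 and -0.0021. ADAM8, found on leukocytes in mammals and mentioned here after its values were seen, was dim at 2.94, 2.95 and 2.93 in controls and 2.97, 3.22 and 3.03 in wounds. Its groups did not overlap, the difference being 0.14 (standard error 0.07, adjusted p = 0.506 by limma). A second, also dim probe set of ADAM8 differed by 0.02 (adjusted p = 0.75 by limma), with overlap. On the same arrays all 19 measured myeloid cell markers, a list chosen with earlier results of these data known, lay above their controls without overlap. Of the 19, 13 rose, 2 with the replicate number as a block, and the median difference was 2.10. The part of these markers in the value of ADAM8 was not tested.

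**Figure D2:**
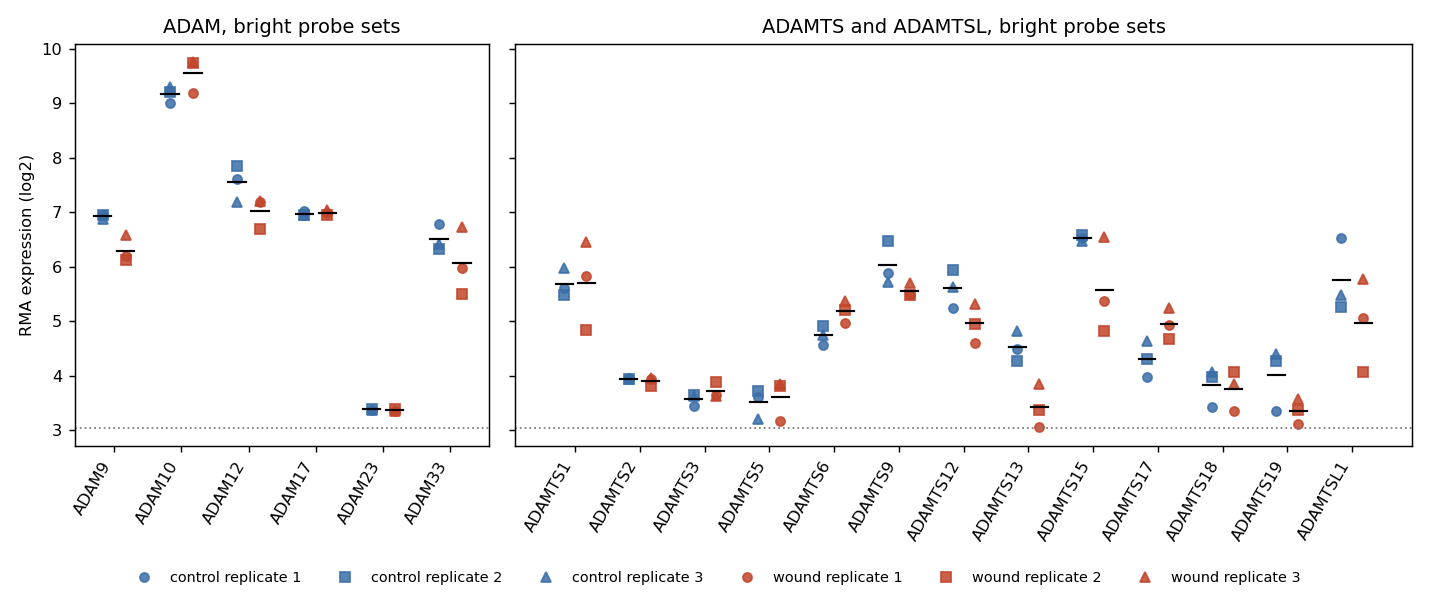
RMA expression (log2) of the 19 bright member genes on each array, controls in blue and wounds in red, with a symbol for each replicate number, black bars for group means and a dotted line at 3.05, the median over all probe sets. In ADAM33, ADAMTS15, ADAMTS1 and ADAMTSL1 wound replicate 3 lies highest and wound replicate 2 lowest of the wounds.

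Among the ADAMTS proteases that cut proteoglycans, ADAMTS15, a versican-cutting enzyme, varied most between wounds. It measured 6.52, 6.58 and 6.47 in controls, a standard deviation (SD) of 0.06, and 5.38, 4.83 and 6.54 in wounds, an SD of 0.88. Wound replicates 1 and 2 lay more than 1 log2 unit below every control and wound replicate 3 among them, so the groups overlapped. The difference was -0.94 (standard error 0.46, adjusted p = 0.494 by limma). The other bright probe sets of ADAMTS15 differed by more, -1.55 (standard error 0.48, adjusted p = 0.236) and -1.41 (standard error 0.43, adjusted p = 0.226), and in both the wounds lay below the controls without overlap. Without wound replicate 3 the gene's difference was -1.42 (adjusted p = 0.0537 by limma), and without wound replicate 2 it was -0.56 (adjusted p = 0.698).

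ADAMTS9, a conserved versican-cutting protease, measured 5.88, 6.47 and 5.73 in controls and 5.48, 5.49 and 5.71 in wounds. The groups did not overlap, although control replicate 3 and wound replicate 3 lay close together. The difference was -0.47 (standard error 0.22, adjusted p = 0.464 by limma), and all 6 bright probe sets of ADAMTS9 lay below 0, from -0.94 to -0.01. Without control replicate 2, the highest array, the difference was -0.24 (adjusted p = 0.513). ADAMTS1, which also cuts versican, measured 5.61, 5.49 and 5.97 in controls and 5.82, 4.84 and 6.45 in wounds. Its wounds spread around its controls, and the difference of 0.02 had a 95% interval from -1.14 to 1.18 in the unpaired fit. That interval was too wide to exclude a 2-fold change in either direction. With the replicate number as a block the standard error was smaller, 0.28 beside 0.45, and no interval was drawn from that fit. ADAMTS5, the aggrecan-cutting enzyme of cartilage, differed by 0.10 and the dim ADAMTS8 and ADAMTS20 by -0.06 and 0.0029.

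In the RefSeq table ADAMTS1 and ADAMTS5 lie next to each other on chromosome 1, and ADAMTS8 and ADAMTS15 on chromosome 24. ADAM9 and ADAM32 are neighbours on chromosome 22. In each pair 0 other protein-coding genes of the table lie between. Each pair holds at most 1 gene that differed by 0.5 or more in size, ADAMTS15 and ADAM9, and their neighbours ADAMTS8 and ADAM32 were dim.

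ADAMTS13, which cuts von Willebrand factor and so limits platelet adhesion, had the largest difference of the 30 members in either direction. It measured 4.49, 4.28 and 4.83 in controls and 3.06, 3.37 and 3.86 in wounds, with all wounds below all controls. The difference was -1.10 (standard error 0.26, 95% interval -1.77 to -0.43, adjusted p = 0.129 by limma), 0.465 of the control level. Every egg showed it, at -1.43, -0.91 and -0.97. A second probe set differed by -0.92 (standard error 0.45, adjusted p = 0.499), with overlap, and another, near the median level at a mean of 3.19, by -0.01. The substrate, VWF, differed by -1.49 (standard error 0.37, adjusted p = 0.152 by limma) in the same direction, a value noted after it was seen.

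Of the proteases that cut cartilage oligomeric matrix protein, ADAMTS12 measured 5.25, 5.93 and 5.63 in controls and 4.61, 4.96 and 5.32 in wounds. The groups overlapped, while within each egg the wound was lower, at -0.65, -0.98 and -0.31. The difference was -0.64 (standard error 0.26, adjusted p = 0.380 by limma, 0.217 with the replicate number as a block), and its 3 probe sets, all bright, lay below 0. ADAMTS7, the other protease of this kind, was dim and differed by -0.11 (adjusted p = 0.472). ADAMTS2, ADAMTS3 and ADAMTS14, which remove the amino-terminal propeptide of procollagens, differed by -0.03, 0.15 and -0.01.

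ADAMTS17 and ADAMTS6 were the ADAMTS genes that lay higher in the wound without overlap. Both genes are linked to fibrillin microfibrils in mammals. ADAMTS17 measured 3.99, 4.30 and 4.64 in controls and 4.94, 4.68 and 5.25 in wounds, with control replicate 3 and wound replicate 2 close together. Its difference was 0.64 (standard error 0.23, adjusted p = 0.305 by limma, 1.56-fold), while its other 3 probe sets, near the median level, differed by -0.08 to 0.02. ADAMTS6 measured 4.56, 4.92 and 4.75 in controls and 4.98, 5.22 and 5.37 in wounds, a difference of 0.44 (standard error 0.14, adjusted p = 0.248, 1.36-fold). In both genes this brightest probe set was higher in the wound of every egg. A second bright probe set of ADAMTS6 differed by -0.21 (standard error 0.11). It was lower in the wound of every egg, at -0.14, -0.35 and -0.15. With the mean of its probe sets ADAMTS6 differed by 0.04.

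Of the other ADAMTS genes, ADAMTS19 differed by -0.66 (adjusted p = 0.494 by limma), ADAMTS18 by -0.07 and the dim ADAMTS10 by -0.01. ADAMTSL1, the protease-free relative also called punctin, measured 6.52, 5.26 and 5.48 in controls and 5.07, 4.08 and 5.78 in wounds, a difference of -0.78 (standard error 0.57, adjusted p = 0.720). Both groups spread widely, with SDs of 0.67 in controls and 0.85 in wounds. The difference was -0.40 without control replicate 1, -0.33 without wound replicate 2 and -1.18 without wound replicate 3. ADAMTSL3 was dim and differed by -0.03, with its other dim probe sets at -0.42 (adjusted p = 0.716 by limma) and 0.02.

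**Figure D3:**
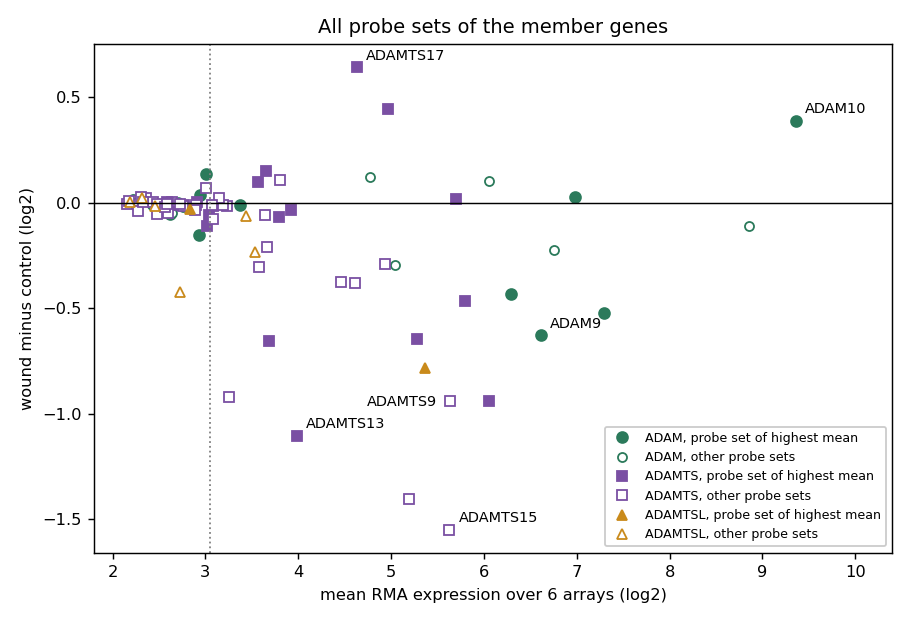
Difference of wound and control (log2, vertical axis) against mean RMA expression over 6 arrays (log2, horizontal axis) for all 87 probe sets of the member genes, filled for the probe set that represents its gene and open for the others, with a dotted line at 3.05. The 44 dim probe sets lie between -0.42 and 0.14, and the 43 bright ones between -1.55 and 0.64.

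The probe sets of a gene often differed with their brightness. Over all 87 probe sets 0 passed the test, and 61 lay below 0, beside 18432 of the 38439 on the array. Of the 43 bright ones 32 lay below 0, beside 8322 of the 19219 bright probe sets of the array. The median of the 43 was -0.11, beside 0.05 over those 19219. Probe sets of 1 gene are not independent, and ADAMTS9 alone gave 6 of the 32. By gene, 12 of the 19 bright members lay below 0, beside 3622 of the 9337 bright genes of the array. At an unadjusted p under 0.05 lay 7 of the 87, 2 higher and 5 lower, where 14.4% of all probe sets did so, 10.1% higher and 4.29% lower. Besides those of ADAM9, ADAMTS6, ADAMTS13 and ADAMTS17 that represent their genes, these were 2 of ADAMTS15 and 1 of ADAMTS9. In ADAM9, ADAM10, ADAM12, ADAMTS6 and ADAMTS17 bright probe sets of 1 gene lay on both sides of 0.

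Wound and control arrays of the same number were taken to come from the same egg, so each egg also gives a difference of its own. Over the 19 bright members the median of that difference was -0.24, -0.65 and 0.03 for replicate numbers 1, 2 and 3. Members below 0 numbered 14, 11 and 8 of 19. Of all bright probe sets of the array 45.8%, 41.7% and 38.3% lay below 0, with medians of 0.01, 0.04 and 0.08. In 5 members all eggs were lower in the wound (ADAM9, ADAMTS9, ADAMTS12, ADAMTS13 and ADAMTS19), and in 3 all were higher (ADAM10, ADAMTS6 and ADAMTS17). This holds for the brightest probe set of each gene. In ADAM9 and ADAMTS6 a second bright probe set went the other way in every egg. Over all bright probe sets of the array 20.7% were lower in all eggs and 35.7% higher. With the replicate number as a block in limma 0 members passed, where 0.819% of all probe sets passed, 0.702% as higher and 0.117% as lower, and the lowest adjusted p was 0.0894, that of ADAMTS13. At an unadjusted p under 0.05 in this blocked fit lay 8 of the 30 members, 3 higher and 5 lower, against 17.9% of all probe sets. That share was not split by direction or taken with 1 probe set per gene. The 8 are therefore not read as more or fewer than on the array.

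**Figure D4:**
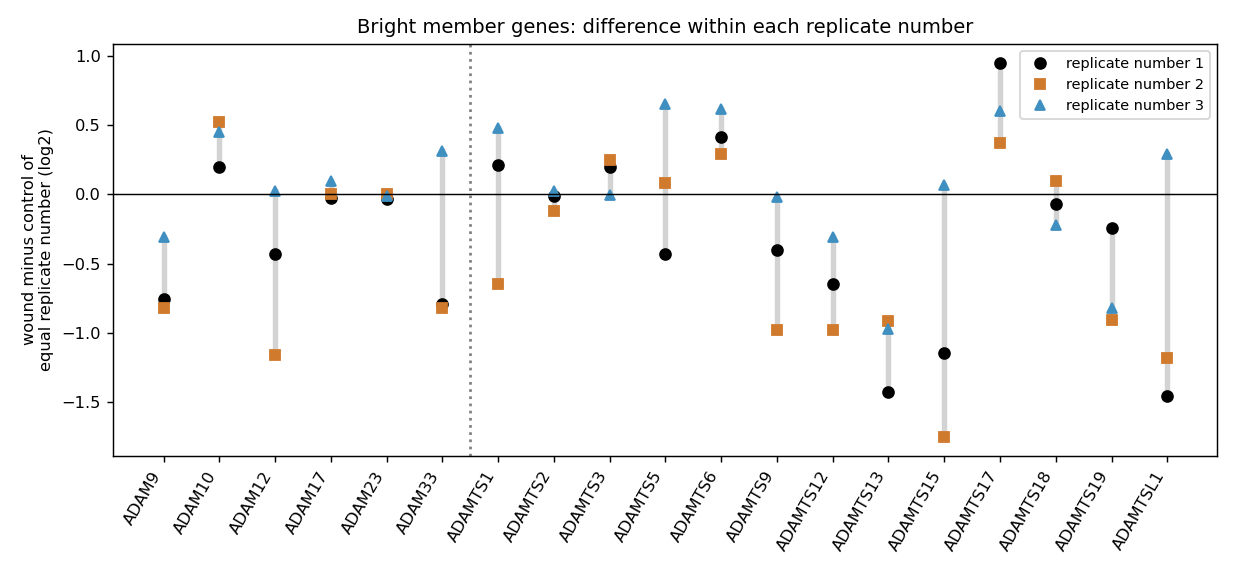
Wound minus control within each replicate number (log2) for the 19 bright members, each by its brightest probe set. ADAMs lie left of the dotted line, and a grey bar runs from the lowest to the highest of the 3 values. ADAM9, ADAMTS9, ADAMTS12, ADAMTS13 and ADAMTS19 lie below 0 and ADAM10, ADAMTS6 and ADAMTS17 above 0 in every egg, while ADAM33, ADAMTS15 and ADAMTSL1 are low for numbers 1 and 2 and above 0 for number 3.

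Wound replicate 3 was the wound nearest to the control mean in 11 of the 19 bright members, which compares with 40.1% of all bright probe sets. In 9 of the 19, 4 ADAMs and 5 ADAMTS or ADAMTSL genes, the wounds ran from replicate 3 over replicate 1 to replicate 2, an order found in 16.6% of bright probe sets. The order was picked from the members' own values, so its share among them is no test. These shares are descriptions of 3 arrays. The summed linear level of 16 fibroblast and mural cell markers was 20400, 16874 and 35501 in wound replicates 1, 2 and 3, and between 34692 and 37128 in controls. That of 17 endothelial markers was 2986, 3146 and 4878 in wounds, with replicate 1 lowest, and between 6044 and 6914 in controls. Such a sum is weighted to the brightest probe sets. In the fibroblast list most of it comes from COL1A1, COL3A1, DCN, COL1A2 and LUM. In bulk tissue fewer cells of a type and less RNA per cell cannot be told apart.

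Marker lists of the cell types of the tissue were set beside the members. The lists were chosen with earlier results of these data known, so their counts are no test. They hold genes of the study's own lists of changed genes, such as CYBB, KRT75, TCF21 and EGFL7. Of the 13009 genes of the array 510 rose and 51 fell. Of the 16 fibroblast and mural cell markers 15 lay below 0, with a median of -0.58, and 1 fell, the transcription factor TCF21 (-1.52, adjusted p = 0.0309 by limma, 0.0775 with the block). The marker above 0 was FAP, a protease of activated fibroblasts, named here after its value was seen, at 1.40 without overlap (adjusted p = 0.204 by limma, 0.0469 with the block), so that with the block 1 marker of this list was higher and 0 were lower. Of the 17 endothelial markers 16 lay below 0, with a median of -0.91, and 1 fell, EGFL7 (-1.18, adjusted p = 0.0384, 0.121 with the block). All of these markers were bright by their mean over 6 arrays, although the smooth muscle actin ACTA2 had a wound mean of 2.88, below 3.05, and the endothelial EMCN was close to it in both groups (3.17 and 3.21). Of the 19 myeloid markers 13 rose, 2 with the block, led by CYBB (3.29, adjusted p = 0.0225 by limma, 0.0741 with the block), with sums between 2061 and 2784 in controls and between 9772 and 11611 in wounds. Of 12 epithelial markers 3 rose, KRT75, CLDN1 and EPCAM, 1 with the block, CLDN1, and 12 lay above 0, with sums between 16895 and 18352 in controls and between 27548 and 29429 in wounds. Of 11 lymphocyte markers 0 passed the test, and sums lay between 119 and 142 in controls and between 184 and 219 in wounds. The T cell receptor chains CD3D (1.36, adjusted p = 0.0554 by limma) and CD3E (0.66, adjusted p = 0.226) differed most, both higher without overlap, and SAM's d-statistic called 1 marker of this list. Of 7 erythroid markers 0 passed the test, the sums of the groups overlapped, and SLC4A1 (-1.10) and HBE (0.37) differed most. The part of the cell types in the members' values was not tested.

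Proteins that inhibit, mature or are cut by these proteases were taken from lists. These lists too were chosen with earlier results of these data known, so their counts are no test. The tissue inhibitors of metalloproteinases (TIMPs) and RECK, a membrane-bound inhibitor, had 4 measured genes, of which 0 passed the test and 4 lay below 0, with a median of -0.61. TIMP4 differed by -0.84 (adjusted p = 0.106 by limma, 0.0417 with the block) and RECK by -0.73 (adjusted p = 0.182), both without overlap. TIMP3, the TIMP that inhibits many ADAMs and ADAMTSs in mammals, differed by -0.26 (adjusted p = 0.833). Of 12 measured partners in maturation and transport, among them the convertases that remove the prodomain and the tetraspanins that escort ADAM10, 0 passed the test and the median was 0.03. The convertase PCSK6 differed by 0.87 (adjusted p = 0.558) and the tetraspanin TSPAN14 by 0.59 (adjusted p = 0.190 by limma).

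Among known substrates of ADAM shedding 2 of the 29 measured rose and 0 fell, and the median was -0.01. They were CD44, the hyaluronan receptor (2.49, adjusted p = 0.0211 by limma), and the receptor phosphatase PTPRZ1 (0.99, adjusted p = 0.0420, 0.0856 with the block). At an unadjusted p under 0.05, 7 of the 29 were higher and 6 lower, against 10.1% and 4.29% of all probe sets. With 1 probe set per gene 2273 of the 13009 genes of the array were higher and 772 lower. Of the 29, 24 were bright, and of the 9337 bright genes of the array 2239 were higher and 732 lower. SAM's d-statistic called 5 higher and 1 lower, against 4.84% and 1.44% of all probe sets and 1121 and 274 of the 13009 genes. Matrix substrates of ADAMTS proteases lay mostly below their controls. Of 27 measured, 0 passed the test by limma, 24 lay below 0 and the median was -0.63, where 5600 of the 13009 genes of the array lay below 0. At an unadjusted p under 0.05, 1 of the 27 was higher and 12 lower, against 10.1% and 4.29% of all probe sets. Of the 13009 genes 2273 were higher and 772 lower. SAM's d-statistic called 0 higher and 6 lower, against 4.84% and 1.44% of all probe sets and 1121 and 274 of the 13009 genes. Fibrillin FBN2 (-1.91, adjusted p = 0.140) and the inhibitor TFPI2 (-1.80, adjusted p = 0.198) differed most, and versican VCAN, noted as a classical substrate after its value was seen, measured -0.41 (adjusted p = 0.226). Some substrates are also in the marker lists, such as VWF and KDR among endothelial genes and COL1A1 among those of fibroblasts.

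**Figure D5:**
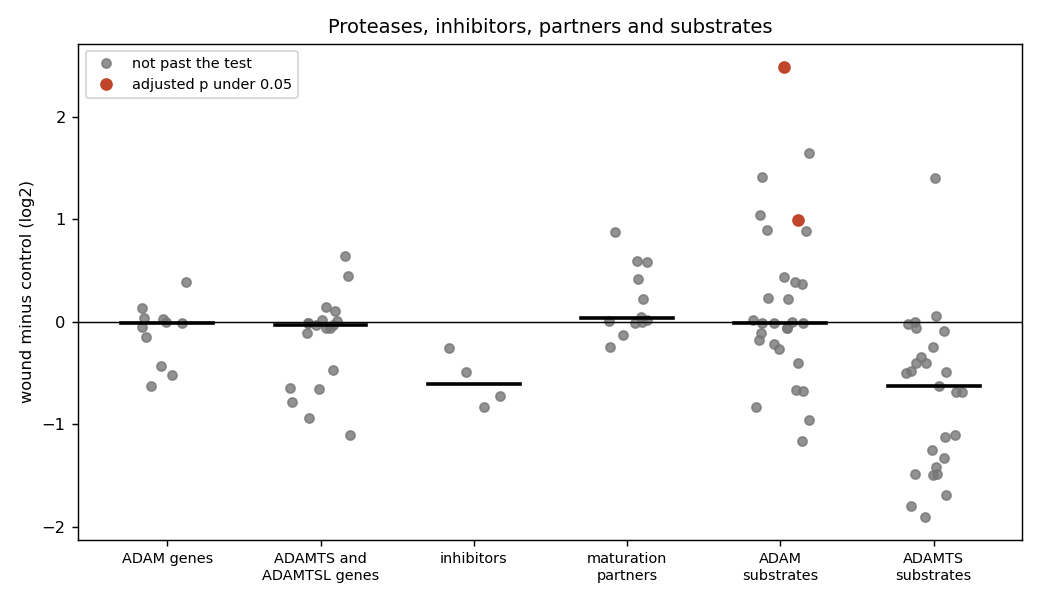
Difference of wound and control (log2, vertical axis) for each gene of the families and of the related lists, with grey points for genes that did not pass the test, red points for those at an adjusted p under 0.05 and black bars for medians. The medians are -0.01 for ADAMs, -0.03 for ADAMTS and ADAMTSL genes, -0.61 for inhibitors, 0.03 for maturation partners, -0.01 for ADAM substrates and -0.63 for ADAMTS substrates, and the red points are CD44 and PTPRZ1.

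Close relatives outside the naming rule included genes that rose. ADAMDEC1, a secreted ADAM-like protease with a divergent zinc site known from human macrophages and gut, measured 5.97, 5.39 and 5.73 in controls and 7.04, 6.91 and 7.20 in wounds. All wounds lay above all controls, a difference of 1.35 (standard error 0.17, adjusted p = 0.0376 by limma, 0.0639 with the block, 2.55-fold). A second probe set rose by 1.07 (standard error 0.13, adjusted p = 0.0360, 0.0417 with the block), another differed by 0.88 (adjusted p = 0.113, 0.0417 with the block), and 2 more by 0.24 and -0.0052. The study's own annotation gave the name ADAM28 to the brightest of these probe sets, and the study listed it among its up-regulated genes. The platform annotation used here gives ADAMDEC1, so this probe set is not counted among the members. Under the study's name it would be an ADAM gene that rose. ADAM9L, dim at 2.81, 2.73 and 2.78 in controls and 3.21, 3.20 and 3.11 in wounds, rose by 0.40 (standard error 0.04, adjusted p = 0.0222 by limma, 0.0644 with the block). ADAM20L and ADAMTSL2L were dim and differed by 0.05 and 0.02.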

How the data were processed

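Total RNA of wound and control CAM was hybridized by the authors to Affymetrix chicken GeneChips, 1 array per sample. The deposited values are log2 expression per probe set, made by RMA according to the study and the submitters. Its version was not given in the sources used here. GCOS scaling, also in the methods, gives linear signals, and the deposited values, from 1.16 to 15.1 with array medians of 3.01 to 3.05, are not such signals. No sample column was left unused (0 columns). Of 38535 probe sets 96 controls were left out. Of the rest 27168 have 1 symbol, 177 several, which were not named, and 11094 none.

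The comparison used lmFit and eBayes of limma 3.58.1, run under R 4.3.3, with an unpaired design, as the study's comparison of classes has none. Tables were written with pandas 2.3.3 and figures with matplotlib 3.10.9, under Python 3.11.15. After removal of group means, the 3 wound-control pairs sharing a replicate number had correlations of 0.58, 0.63 and 0.45, the remaining pairs negative ones. Deviations from a group mean cancel within the group, so positive values in some pairs bring negative ones in others. The negative values therefore add no separate evidence on pairing. With the methods' statement that each wound had a control of the same egg, equal numbers were treated as pairs, and the blocked p, or the blocked count of a list, is given where it changes a call. The members and the 10 gene lists were chosen with earlier results of these data known. Members were to be described in full where they passed the test, differed by 1 or more in size, were among the 6 of highest mean in their family, differed by 0.5 or more without overlap, or had probe sets of both signs. Of those with probe sets of both signs, ADAM22, ADAM32, ADAMTS3, ADAMTS7, ADAMTS20 and ADAMTSL3 are described more briefly, without their level on each array. In a list up to 4 genes past the test are named, or 2 where none passed. The steps were tested on simulated data. Alternatives were quantile normalization, median centring, bright probe sets alone, the replicate block, robust limma with a mean trend, SAM over 20 relabellings, other thresholds, the mean of a gene's probe sets, and leaving out each array. In SAM's d-statistic the median standard error over all probe sets was added to the standard error of each. No genome or sequence was used.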

Additional observations from a re-analysis of the deposited data

How the results depend on the processing

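Counts of members past the test stayed at 0 for both families and directions under several settings. These were quantile normalization, median centring, limma with trend and robust, an adjusted p under 0.1, and the mean of a gene's probe sets. SAM's rank sum also gave 0, but it called 0 of all probe sets, so it says nothing about the members in particular. A fold over 2 added to a test that called 0 members could give no other count. With the replicate number as a block the counts of members were also 0, and beyond the values given in the report the block changed no other call of a member. With bright probe sets alone, 1 ADAM (ADAM9, adjusted p = 0.0469) and 1 ADAMTS gene (ADAMTS13, adjusted p = 0.0495) were lower. There limma was fitted anew and p adjusted over the 19219 bright probe sets, of which 365 were lower and 1423 higher. SAM's d-statistic called 1 ADAM and 1 ADAMTS gene lower, again ADAM9 and ADAMTS13. Beside them 552 of all 38439 probe sets were lower, and 274 of the 13009 genes with 1 probe set each. Leaving out each array gave 0 to 1 ADAM genes lower, the 1 being ADAM9 without wound replicate 3. In that setting 421 of all probe sets were lower, beside 117 with no array left out. Counting symbols with a letter after the number, chosen after seeing the data, gave 1 ADAM gene higher, ADAM9L.

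Of 175 values of single members under alternatives, 168 kept their sign and their side of the threshold, 4 passed it and 3 changed sign. After quantile normalization ADAM17 measured -0.10 and ADAMTS1 -0.049, and with the mean of its probe sets ADAMTS20 measured -0.0050. When 1 array was left out, ADAM17 lay between -0.00019 and 0.049, ADAMTS1 between -0.36 and 0.45, ADAMTS20 between -0.020 and 0.048 and ADAMTSL3 between -0.055 and 0.0082. Of 120 such values 110 were unchanged in sign and call, 1 passed the threshold and 9 changed sign. The cause was not tested. ADAM10, ADAMTS6 and ADAMTS17 kept their sign throughout, with lowest values of 0.08, 0.04 and 0.14. Without wound replicate 3 ADAM9, ADAMTS13 and ADAMTS15 reached adjusted p-values of 0.0177, 0.0766 and 0.0537. Signal near the floor of the scale limits what 11 dim members can show.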
